A study of Mus musculus with 12 samples.

Results

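NK-like and Distal-less class homeobox genes were examined in the mouse cerebellum at postnatal day 14. They are 39 genes of the ANTP class (the class that also holds the Hox genes) that lie outside the Hox clusters, given as a fixed list of symbols and found by the symbol column of the deposited table of differences; all 39 were found among the 55385 genes listed. Polyadenylated RNA of whole cerebellum was sequenced in 3 wild-type (WT) and 3 EED-/- libraries. All 6 came from C57BL/6 mice aged 14 days, and the EED-/- animals are described as conditional knockouts of Embryonic Ectoderm Development. The labels used here name no Cre driver, no deleted exons and no animal for a library, so p-values measure the spread between these libraries, which may be technical. ChIP-seq samples of the same series were not analysed here.

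Homeobox genes encode transcription factors that bind DNA through a homeodomain. NK-like and Distal-less class factors divide the embryonic neural tube, the gut, the heart and the skeleton into regions, and many of them act as repressors that keep the programme of a neighbouring region silent. The Eed protein belongs to Polycomb repressive complex 2, whose enzyme deposits H3K27me3, a mark of silenced chromatin, and the CpG-rich promoters of such developmental regulators are textbook carriers of that mark. In the cerebellum, Barhl1 is known as a factor of the granule neuron lineage, whereas Nkx2-2 and Nkx6-2 are known in oligodendrocytes.

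Start-site sequence was taken from RefSeq (GRCm38.p6), whose promoter table held 31 windows for 29 of the 39 genes; Vax2, Gbx1, Cdx1, Dlx4, Dlx3, Barx2, Lbx1, Dlx5, Meox1 and Dlx6 had no entry. Each window is the 250 bases before a start site. The 5 sequences below are shown because they span the outcomes described further on: Barhl2 was lower in EED-/- libraries, Evx2 was higher, Hmx1 had too few counts to be tested, Nkx6-2 passed no threshold and Cdx4 had no count in any library. They were picked among windows that overlap no annotated exon. All read 5′ to 3′ on the strand of the gene, and capitals mark each CG dinucleotide. The windows are chr5:106458167-106458416 (minus strand) for Barhl2, chr2:74659558-74659807 (minus) for Evx2, chr5:35388611-35388860 (plus) for Hmx1, chr7:139582798-139583047 (minus) for Nkx6-2 and chrX:103321148-103321397 (plus) for Cdx4.
Barhl2: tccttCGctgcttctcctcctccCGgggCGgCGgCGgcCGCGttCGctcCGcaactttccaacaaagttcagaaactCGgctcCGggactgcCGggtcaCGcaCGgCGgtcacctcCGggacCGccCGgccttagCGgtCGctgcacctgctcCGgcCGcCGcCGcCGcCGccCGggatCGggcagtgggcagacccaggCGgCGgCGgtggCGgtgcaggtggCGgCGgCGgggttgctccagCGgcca
Evx2: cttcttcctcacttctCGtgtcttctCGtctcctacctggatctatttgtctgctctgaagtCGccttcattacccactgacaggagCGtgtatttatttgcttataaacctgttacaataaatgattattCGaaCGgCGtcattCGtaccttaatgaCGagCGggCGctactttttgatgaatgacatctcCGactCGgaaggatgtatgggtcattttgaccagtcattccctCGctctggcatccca
Hmx1: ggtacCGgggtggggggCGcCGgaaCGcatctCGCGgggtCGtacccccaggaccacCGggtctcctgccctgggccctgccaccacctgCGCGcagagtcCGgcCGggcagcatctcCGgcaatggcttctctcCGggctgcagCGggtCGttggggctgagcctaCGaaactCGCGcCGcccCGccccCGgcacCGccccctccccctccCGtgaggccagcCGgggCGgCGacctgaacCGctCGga
Nkx6-2: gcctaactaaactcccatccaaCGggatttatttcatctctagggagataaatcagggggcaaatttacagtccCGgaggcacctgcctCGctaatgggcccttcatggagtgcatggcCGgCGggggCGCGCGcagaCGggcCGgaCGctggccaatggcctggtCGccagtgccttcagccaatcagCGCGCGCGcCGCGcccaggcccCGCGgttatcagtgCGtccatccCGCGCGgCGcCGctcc
Cdx4: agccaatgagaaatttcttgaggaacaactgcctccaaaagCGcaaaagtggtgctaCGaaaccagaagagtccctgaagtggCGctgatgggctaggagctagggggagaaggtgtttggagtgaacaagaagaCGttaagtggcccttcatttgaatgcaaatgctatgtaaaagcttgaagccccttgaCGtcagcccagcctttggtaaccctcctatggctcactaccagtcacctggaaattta

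The Barhl2 window held 36 CG dinucleotides, Hmx1 29, Nkx6-2 26, Evx2 14 and Cdx4 5. Relative to the number that its own C and G content would give (the observed over expected ratio), CG was at 1.03 in Barhl2, 1.1 in Evx2, 0.982 in Nkx6-2, 0.819 in Hmx1 and 0.344 in Cdx4. Over the 31 windows the median ratio was 0.70, from 0.0656 at a window of Hmx2 to 1.13 at Nkx6-1. The median was 0.675 over 16166 windows of tested genes and 0.374 over all 32841 windows. The homeobox windows were thus CG-rich in comparison with all windows and close to those of other genes detected in these libraries. Genes called higher, lower, not called and not tested had medians of 0.978 (4 windows), 0.676 (5), 0.704 (5) and 0.69 (17). The letters TATAAA, the core of a TATA box, were found on either strand in 4 windows (12.9%; Dbx1, Evx2, Hmx2 and Meox2), beside 6.95% of windows of tested genes and 12.4% of all windows. The letters TAATTA, a palindromic core that many homeodomains bind in vitro, were in 1 window (3.23%; Msx2), beside 2.72% and 4.84%. These letter matches are descriptions of the windows, not binding sites.

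Each library held 19621814 to 20366173 estimated counts, and levels are given as CPM, reads per 1000000 counts of the TMM-scaled library. At this depth 1 CPM is about 20 counts, and intervals and bounds below cover counting error only. Eed itself was at 20.1, 26.6 and 23.5 CPM in WT and at 11.6, 9.31 and 11.3 CPM in EED-/- libraries, 2.18-fold lower (edgeR adjusted p = 0.0015). All 17 granule neuron markers and all 14 Purkinje cell markers of the lists used had counts and were tested. This does not check the tissue label, since 15 of 16 forebrain neuron markers were tested as well. WT replicate 1 stood somewhat apart within its group: its counts differed from those of WT replicates 2 and 3 by 55.2 and 26.5 chi-square units per degree of freedom, beside 13.0 between the latter. Without it 9 homeobox genes were called higher (Nkx2-2 lost; Barx1, Mnx1 and Tlx1 gained) and the same 5 lower. Mitochondrial genes took 3.21% to 6.37% of counts in WT and 6.45% to 8.04% in EED-/- libraries; the part of that difference in the results below was not tested.

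Most of the 39 genes were rare transcripts in this tissue. Cdx1 and Cdx4 had no count in any library, 9 genes had no count in any WT library (Nkx2-3, Nkx2-5, Barx1, Vax1, Vax2, Dbx1 and the 3 Cdx genes), and a further 6 had 1 to 3 counts over the WT libraries together. WT libraries each held a count for 24 to 28 of the 39 genes, and EED-/- libraries for 35 or 36. After the low-count filter 21 genes could be tested with edgeR's quasi-likelihood test, and 18 could not. Of the 21, 14 passed the filter in either group alone, 4 only through the EED-/- libraries (Dlx6, Emx2, Vax2 and Tlx1), 1 only through the WT libraries (Gbx1) and 2 through libraries of both groups (Dlx1 and Dlx3). A gene that passes only through 1 group was selected for its level there, so a call of it has its direction set by the filter. Such a gene need not differ: Gbx1 overlapped between groups (edgeR adjusted p = 0.8). The counts that follow therefore describe the tested genes and not all 39.

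At an adjusted p under 0.05 over all 18091 tested genes, 7 of the 21 tested homeobox genes were higher in EED-/- libraries: Nkx2-2, Nkx6-1, Dlx6, Emx2, Vax2, Barx2 and Evx2. Over all tested genes 11.7% were called higher. A further 5 were lower: Msx2, Barhl1, Barhl2, Tlx3 and Lbx1, beside 14.1% of all tested genes. The remaining 9 passed no threshold (Nkx6-2, Dlx1, Dlx3, Dlx4, Msx1, Gbx1, Evx1, Tlx1 and Meox1). The median log2 fold change of the 21 was 0.55, and that of all tested genes was -0.03. Without EED-/- replicate 2 only 4 of the 21 were called higher (Nkx6-1, Dlx6, Emx2 and Vax2), and the calls of Nkx2-2, Barx2 and Evx2 were lost. Over all genes the number called higher also dropped in that setting, from 2125 to 1337.

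**Figure D1:**
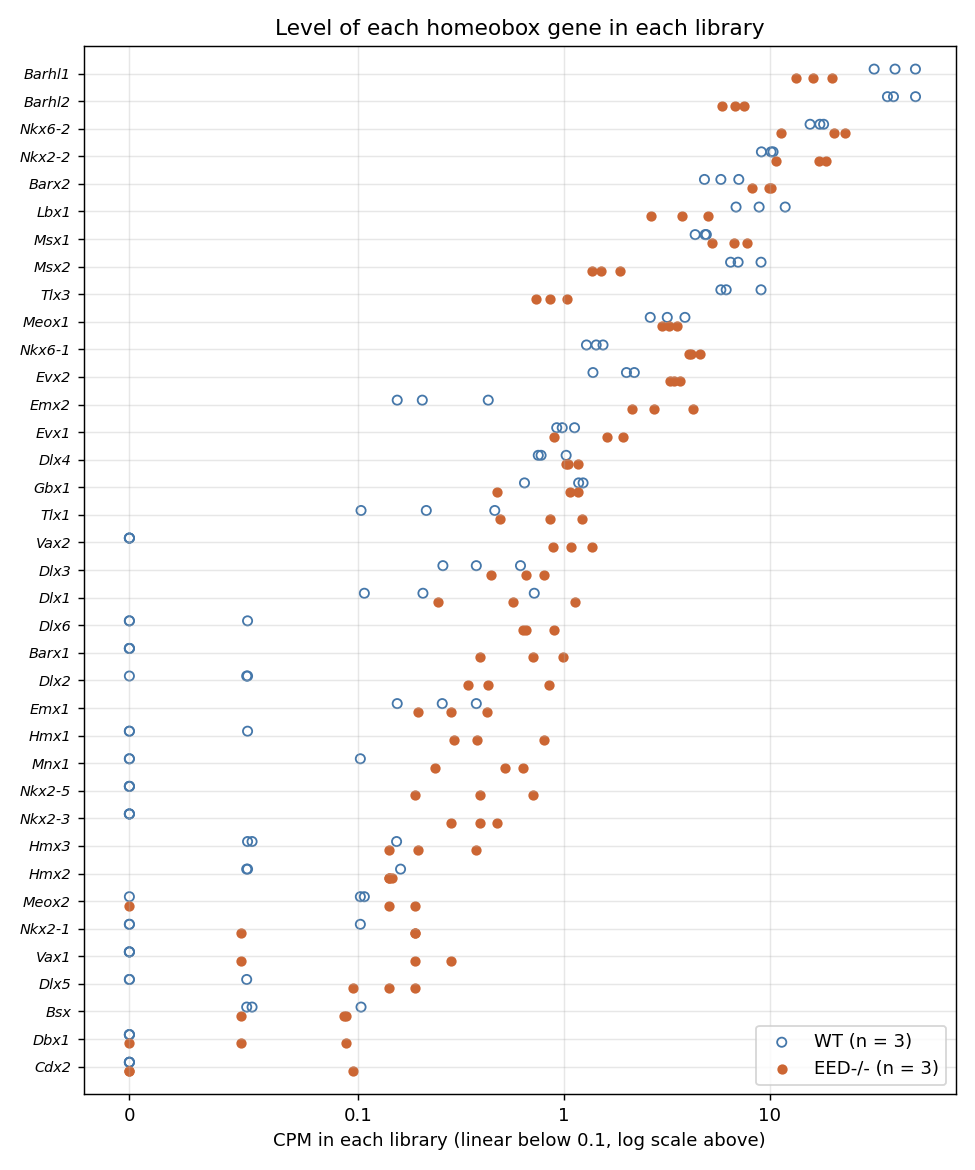
Level of each of the 37 homeobox genes with at least 1 count, in CPM per library (linear below 0.1 CPM, log scale above), ordered from high to low; open circles are the 3 WT and filled circles the 3 EED-/- libraries. The filled circles lie clear to the left of the open ones for Barhl1, Barhl2, Lbx1, Msx2 and Tlx3, and many genes at or near 0 in WT have filled circles between 0.1 and 1 CPM.

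Counted by libraries that do not overlap, which needs no filter, all 3 EED-/- libraries lay above all 3 WT libraries for 18 of the 39 genes; over all 35196 genes with at least 1 count this held for 12.5%. All 3 EED-/- libraries lay below all WT libraries for 5 genes, the 5 called lower, beside 14.9% of all genes. The other 16 overlapped, Cdx1 and Cdx4 among them. The 18 comprise the 7 genes called higher, then Dlx4, Msx1 and Tlx1, which were tested and not called, and 8 that had too few counts to be tested (Nkx2-3, Nkx2-5, Dlx2, Dlx5, Barx1, Vax1, Mnx1 and Hmx1). Of the 14 homeobox genes with a mean of at least 1 CPM, 5 were higher and 5 lower, beside 11.8% and 15.0% of the 16083 tested genes at that level. Of the 7 with a lower mean, edgeR called 2 higher (Dlx6 and Vax2) and 0 lower (0 lower also at an unadjusted p under 0.05 and by DESeq2 and limma-voom), beside 11.0% and 6.92% of the 2008 tested genes that rare. Dlx6 and Vax2 both passed the filter only through the EED-/- libraries, as did Emx2 among the 5 higher genes from 1 CPM. Nothing is therefore read from either side of that split.

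The Bar genes held the most abundant members in WT. Barhl2, a BarH-like factor known for specifying commissural and retinal neurons (ENSMUSG00000034384.11, chr5:106452523-106458166, minus strand), was at 51.2, 40.0 and 37.4 CPM in WT and at 6.77, 5.88 and 7.54 CPM in EED-/- libraries. Its highest EED-/- library lay far below its lowest WT library. The level was 6.36-fold lower (log2 -2.67 ± 0.17 SE, edgeR adjusted p = 5.08e-05). Barhl1, which is needed for granule neuron migration and survival (ENSMUSG00000026805.14, chr2:28907679-28916668, minus strand), was at 51.1, 32.2 and 40.7 CPM in WT and at 16.2, 20.2 and 13.5 CPM in EED-/- libraries. The groups did not overlap, and the change was 2.49-fold lower (log2 -1.31 ± 0.20 SE, edgeR adjusted p = 0.00262).

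Scaled per kilobase of annotated exons, Barhl2 ranked first among the 39 genes in WT at 18.5 ± 3.17 CPM per kb (SD, n = 3), followed by Barhl1 at 10.6 ± 2.43 and Nkx6-2 at 9.01 ± 0.695. The levels of Barhl1 and Nkx6-2 lay within their spread of each other. In EED-/- libraries the order was Nkx6-2 at 9.61 ± 3.24, Nkx2-2 at 5.45 ± 1.5, Barx2 at 4.8 ± 0.539, Barhl1 at 4.26 ± 0.864 and Barhl2 at 2.91 ± 0.359 CPM per kb. In that second order, neighbours from Nkx2-2 to Barhl1 differed by less than the larger of their SDs.

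The other Bar genes went the opposite way. Barx2, known for regulating cell adhesion genes and muscle differentiation (ENSMUSG00000032033.11, chr9:31846044-31913462, minus strand), was at 4.82, 5.79 and 7.08 CPM in WT and at 9.94, 10.2 and 8.22 CPM in EED-/- libraries. Every EED-/- library was above every WT library, and the level rose 1.6-fold (log2 0.68 ± 0.19 SE, edgeR adjusted p = 0.0286). That call was lost when EED-/- replicate 1, EED-/- replicate 2 or WT replicate 2 was left out (adjusted p 0.0573 to 0.106). Barx1, which patterns the stomach mesenchyme and teeth, had 0 counts in every WT library and 15, 21 and 8 counts in EED-/- libraries. That is at least 13.4-fold higher against a floor of 3 counts over the WT group. It was below the filter. With no low-count filter its edgeR adjusted p was 4.98e-06, and it was 0.000349 in the authors' deposited table. Adjusted p-values of the unfiltered edgeR fit also moved for abundant genes, from 5.08e-05 to 5.33e-16 for Barhl2 and from 0.0995 to 0.146 for Msx1. Here and below, they are therefore not comparable with those of the main fit.

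Among the Tlx and Lbx genes, Tlx3 and Lbx1, a pair known for opposing roles in choosing glutamatergic or GABAergic fate in the dorsal spinal cord, were both lower. Tlx3 (ENSMUSG00000040610.7, chr11:33200752-33203589, minus strand) was at 9.08, 5.79 and 6.15 CPM in WT and at 0.852, 1.04 and 0.734 CPM in EED-/- libraries. All EED-/- libraries sat near 1 CPM or under it, and the level was 7.97-fold lower (log2 -2.99 ± 0.26 SE, edgeR adjusted p = 0.000196). Lbx1 (ENSMUSG00000025216.9, chr19:45232684-45235812, minus strand) was at 11.9, 6.87 and 8.89 CPM in WT and at 2.65, 5.03 and 3.77 CPM in EED-/- libraries. The groups did not overlap, and it was 2.41-fold lower (log2 -1.27 ± 0.28 SE, edgeR adjusted p = 0.012); without EED-/- replicate 3 its adjusted p was 0.0507. Tlx1, needed for spleen formation, lies 75740 bases from Lbx1 on chromosome 19. It was at 0.462, 0.215 and 0.103 CPM in WT and at 0.852, 1.22 and 0.489 CPM in EED-/- libraries, without overlap, and did not pass the threshold (log2 1.69 ± 0.55 SE, edgeR adjusted p = 0.0533). With RLE, upper-quartile or no scaling factors it passed (adjusted p 0.0407 to 0.0492). Without WT replicate 1 or EED-/- replicate 3 it passed as well (adjusted p 0.0259 and 0.0438). In the main fit Tlx1 was kept by the low-count filter only through the EED-/- libraries.

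Msx genes encode homeodomain repressors that act downstream of bone morphogenetic proteins in the dorsal neural tube, teeth and skull. Msx2 (ENSMUSG00000021469.9, chr13:53466884-53473074, minus strand) was at 9.08, 7.03 and 6.46 CPM in WT and at 1.52, 1.88 and 1.37 CPM in EED-/- libraries. The groups were far apart, and Msx2 was 4.72-fold lower (log2 -2.24 ± 0.22 SE, edgeR adjusted p = 0.000342). Msx1 was at 4.93, 4.35 and 4.86 CPM in WT and at 5.26, 6.73 and 7.73 CPM in EED-/- libraries. Its groups did not overlap either, with EED-/- above, but the difference did not pass the threshold (log2 0.48 ± 0.19 SE, edgeR adjusted p = 0.0995).

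The 5 lower genes moved beside markers of granule neurons, the most numerous neurons of the cerebellum. All 17 granule neuron markers fell (median log2 -2.77), led by Cbln1, Pax6, Zic1 and Neurod2; their summed level was 7109 to 8938 CPM in WT and 1111 to 1385 CPM in EED-/- libraries. Relative to the WT mean, that sum was at 0.142 to 0.177 in EED-/- libraries. Barhl2 was at 0.137 to 0.176, Tlx3 at 0.105 to 0.148 and Msx2 at 0.182 to 0.25 on the same scale. Barhl1 (0.326 to 0.488) and Lbx1 (0.288 to 0.546) kept more of their WT level. For Purkinje cells, whose axons leave the cerebellar cortex, 3 of 14 markers were lower (Lhx1, Gng13 and Pvalb) and 0 higher at the adjusted threshold (2 higher at an unadjusted edgeR p under 0.05; DESeq2 called 2 higher and limma-voom 1), with summed levels of 5466 to 6493 CPM in WT and 5124 to 6932 CPM in EED-/- libraries. Without WT replicate 1 or any one of the EED-/- libraries, and with upper-quartile factors or library size alone, 1 Purkinje marker was lower. In bulk tissue, fewer cells of a type and less RNA per cell cannot be told apart, and the part of cell numbers in these falls was not tested.

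**Figure D2:**
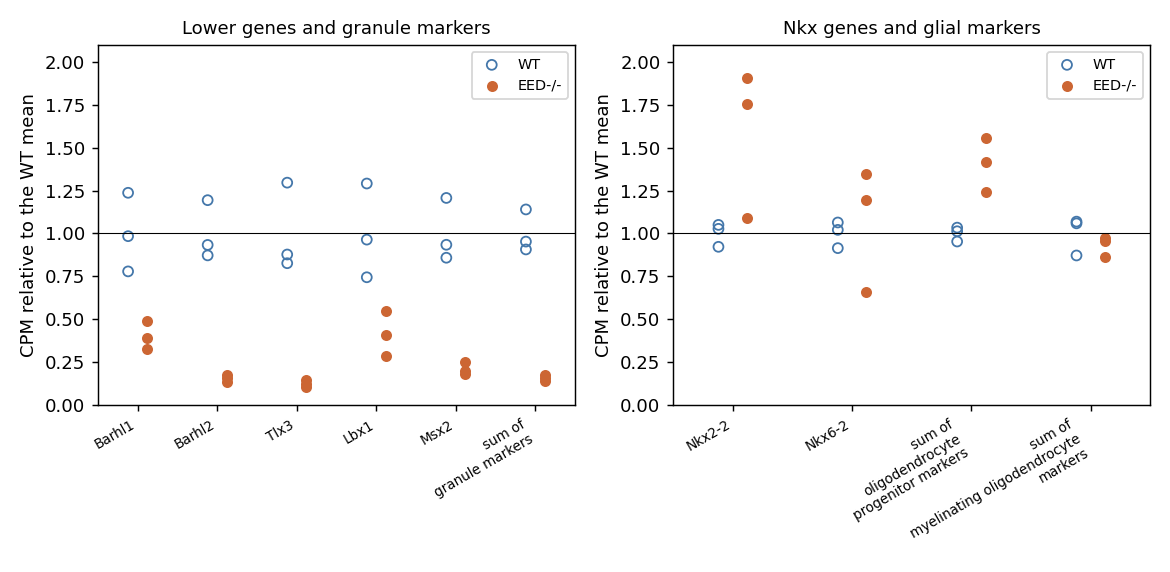
CPM of each library divided by the WT mean of the same gene or marker sum; open circles are the 3 WT and filled circles the 3 EED-/- libraries, and the line marks the WT mean. At left, Barhl2, Tlx3 and Msx2 in EED-/- libraries sit between 0.105 and 0.25, beside 0.142 to 0.177 for the granule marker sum; at right, Nkx2-2 and the oligodendrocyte progenitor sum lie above the line in all 3 EED-/- libraries, and Nkx6-2 on both sides of it.

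The NK2 and NK6 genes gave 2 calls, both higher. Nkx6-1, a factor of motor neuron progenitors and pancreatic beta cells (ENSMUSG00000035187.10, chr5:101658139-101664996, minus strand), was at 1.44, 1.29 and 1.55 CPM in WT and at 4.17, 4.56 and 4.06 CPM in EED-/- libraries. Both groups were tight and apart, and the level rose 2.98-fold (log2 1.58 ± 0.20 SE, edgeR adjusted p = 0.0011). Nkx2-2, a Sonic hedgehog-induced factor of ventral neurons that also acts in oligodendrocyte differentiation (ENSMUSG00000027434.11, chr2:147177546-147194243, minus strand), was at 10.2, 9.12 and 10.4 CPM in WT and at 17.4, 18.9 and 10.8 CPM in EED-/- libraries. EED-/- replicate 3 lay just above the WT range while the other two were well above it. The rise was 1.58-fold (log2 0.66 ± 0.21 SE, edgeR adjusted p = 0.0492). That call was lost with limma-voom (adjusted p = 0.0721) and when any library other than EED-/- replicate 3 was left out (adjusted p 0.0664 to 0.163).

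Nkx6-2, which acts in ventral progenitors and in myelinating oligodendrocytes, showed the same order of EED-/- libraries without a call. It was at 17.5, 15.7 and 18.3 CPM in WT and at 20.5, 23.1 and 11.4 CPM in EED-/- libraries (log2 0.09 ± 0.24 SE, edgeR adjusted p = 0.812). Its EED-/- libraries spanned the WT range, and the fitted change was -0.11 without EED-/- replicate 2. Markers of oligodendrocyte progenitors were higher for 7 of 12, led by Sox6, Pdgfra (also on the meningeal fibroblast list below), Gpr17 and Cspg4, and lower for 0 in edgeR (0 also at an unadjusted p under 0.05 and by DESeq2 and limma-voom). Their summed level was 1145 to 1242 CPM in WT and 1699, 1869 and 1491 CPM in EED-/- replicates 1, 2 and 3, so replicate 3 was again the lowest. Only 3 of the 12 were called without WT replicate 3 or without EED-/- replicate 2, and 4 without EED-/- replicate 1. Markers of myelinating oligodendrocytes were lower for 4 of 12 (Opalin, Mog, Mal and Mobp). Their summed levels were 19690 to 24140 CPM in WT and 19510, 22000 and 21550 CPM in EED-/- replicates 1, 2 and 3. Here replicate 1 and not replicate 3 was the lowest, unlike the order of Nkx2-2 and Nkx6-2. With EED-/- replicate 1, EED-/- replicate 2 or WT replicate 3 left out, 2 of the 12 were called lower. The part of these cells in the Nkx2-2 result was not tested.

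Nkx2 genes of organs outside the nervous system were absent or near 0 in WT. Nkx2-5, the cardiac factor, had 0 counts in every WT library and 4, 15 and 8 counts in EED-/- libraries, at least 8.24-fold higher. Nkx2-3, known in gut and spleen, had 0 counts in WT and 10, 6 and 8 counts in EED-/- libraries, at least 7.32-fold higher. Neither reached the filter; with no low-count filter their edgeR adjusted p was 0.000318 and 0.000516. In the authors' deposited table Nkx2-5 had an adjusted p of 0.00666, and Nkx2-3 a p of 0.00127 with its adjusted p written as 1. Nkx2-1, which specifies thyroid, lung and ventral forebrain, had 2 counts in WT and 9 in EED-/- libraries, and the 95% interval of that ratio ran from 0.852 to 39.2. Markers of gut, lung and thyroid epithelium were higher for 2 of 10 tested genes (Slc5a5 and Pax8) and lower for 1 (Lgr5); without WT replicate 2 or EED-/- replicate 3, none was higher, and without each other library 1 was; without WT replicate 1, 2 were lower.

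Distal-less genes lie in convergent pairs, Dlx1 with Dlx2, Dlx3 with Dlx4 and Dlx5 with Dlx6, separated here by 9426, 15150 and 9236 bases. Dlx1, Dlx2, Dlx5 and Dlx6 drive the GABAergic interneuron programme of the forebrain. Dlx6 (ENSMUSG00000029754.13, chr6:6863334-6868568, plus strand) had 0, 0 and 1 counts in WT and 19, 14 and 13 counts in EED-/- libraries. The EED-/- libraries were alike and far above WT. The ratio of counts was 42.1 (95% interval 7.19 to 1698), and edgeR called the gene higher (adjusted p = 0.00184). Dlx6 passed the filter only through the EED-/- libraries, so the direction of that call was set by the filter. Dlx5, its partner, had 1 count in WT and 3, 4 and 2 counts in EED-/- libraries (ratio 8.24, 95% interval 1.14 to 361) and was not tested. Dlx2 had 1, 0 and 1 counts in WT and 9, 18 and 7 counts in EED-/- libraries, a ratio of 15.6 (95% interval 3.99 to 134). With no low-count filter the edgeR adjusted p of Dlx2 was 0.000742, and 0.0219 in the authors' deposited table.

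Dlx1, the partner of Dlx2, overlapped between groups. It was at 0.718, 0.107 and 0.207 CPM in WT and at 1.14, 0.564 and 0.245 CPM in EED-/- libraries (log2 0.90 ± 0.73 SE, edgeR adjusted p = 0.41). Dlx3, a factor of skin, teeth and placenta, also overlapped, with means of 0.417 ± 0.182 and 0.635 ± 0.183 CPM (SD, n = 3; edgeR adjusted p = 0.343). Dlx4 had means of 0.851 ± 0.152 and 1.08 ± 0.0818 CPM; its groups did not overlap by a narrow margin, and the difference was not called (edgeR adjusted p = 0.41). Without WT replicate 1 the log2 change of Dlx1 was 2.05, and without EED-/- replicate 1 it was 0.23, with no call in either case.

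Emx and Vax genes pattern the dorsal forebrain and the eye. Emx2, a factor of cortex area and hippocampus development (ENSMUSG00000043969.4, chr19:59458372-59465357, plus strand), was at 0.205, 0.429 and 0.155 CPM in WT and at 4.26, 2.73 and 2.15 CPM in EED-/- libraries. The lowest EED-/- library was well above the highest WT library, and the level rose 11.4-fold (log2 3.51 ± 0.44 SE, edgeR adjusted p = 0.000996). Emx1, its close relative in the cortex, had 15 counts over the WT and 19 over the EED-/- libraries, with overlap. Vax2, a factor of the ventral retina (ENSMUSG00000034777.2, chr6:83711264-83738313, plus strand), had 0 counts in every WT library and 23, 29 and 18 counts in EED-/- libraries. It was at least 21.4-fold higher and was called by edgeR (adjusted p = 0.00117). Emx2 and Vax2 passed the filter only through the EED-/- libraries, so the direction of their calls was set by the filter. Vax1, of the optic stalk, had 0 counts in WT and 4, 6 and 1 counts in EED-/- libraries, at least 3.36-fold higher. With no low-count filter its edgeR adjusted p was 0.0343, whereas the authors' deposited table gave an unadjusted DESeq2 p of 0.0509.

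**Figure D3:**
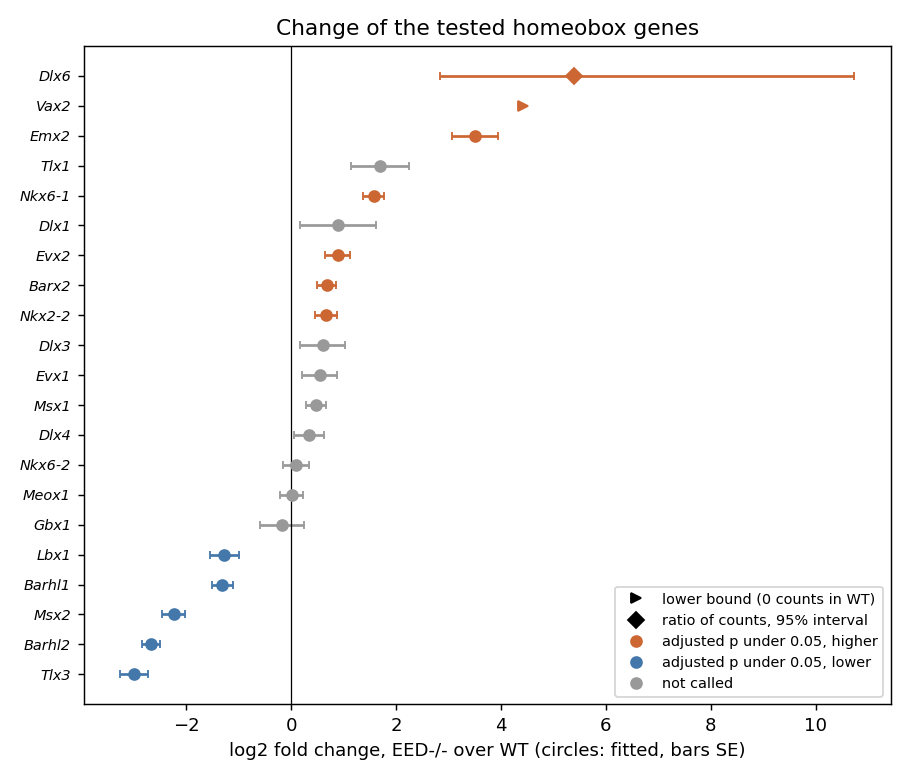
Log2 fold change of EED-/- over WT for the 21 tested homeobox genes; circles are fitted edgeR values with SE bars, the triangle of Vax2 is the lower bound against a floor of 3 counts, and the diamond of Dlx6 is the ratio of counts with its 95% interval. Genes called higher (7), lower (5) and not called (9) are coloured; Dlx6, Vax2 and Emx2 lie at the top and Tlx3 at -2.99 at the bottom.

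Evx, Gbx and Mnx genes act in spinal neurons. Evx2, which flanks the HoxD cluster (ENSMUSG00000001815.15, chr2:74652991-74659557, minus strand), was at 1.39, 2.2 and 2.02 CPM in WT and at 3.27, 3.43 and 3.67 CPM in EED-/- libraries. The groups did not overlap, and the level rose 1.85-fold (log2 0.89 ± 0.23 SE, edgeR adjusted p = 0.024). That call was lost without WT replicate 3 or without any one of the EED-/- libraries (adjusted p 0.0563 to 0.0701). Evx1, the factor of V0 interneurons, had means of 1.01 ± 0.105 and 1.48 ± 0.527 CPM (SD, n = 3; edgeR adjusted p = 0.266), with overlap. Gbx1 had means of 1.02 ± 0.328 and 0.909 ± 0.38 CPM (edgeR adjusted p = 0.8). Mnx1, the classical motor neuron factor, had 2, 0 and 0 counts in WT and 5, 11 and 13 counts in EED-/- libraries, a ratio of 13.3 (95% interval 3.36 to 115). With no low-count filter its edgeR adjusted p was 0.00331, and 0.0476 in the authors' deposited table.

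Hmx1, a factor of eye, ear and cranial sensory ganglia, had 0, 0 and 1 counts in WT and 8, 17 and 6 counts in EED-/- libraries. The ratio was 28.4 (95% interval 4.73 to 1156), and with no low-count filter the edgeR adjusted p was 0.000576. Hmx2 and Hmx3, which lie 3847 bases apart and act in the inner ear and hypothalamus, overlapped between groups, with 5 counts each in WT and 9 and 15 in EED-/- libraries. Meox1, a factor of the somites, showed nearly equal means of 3.23 ± 0.625 and 3.25 ± 0.273 CPM (SD, n = 3; log2 0.01 ± 0.21 SE, edgeR adjusted p = 0.984). Meox2, of limb muscle and vessels, had 4 and 7 counts. The genes at the floor were Cdx2, a gut factor (0 and 2 counts), Dbx1, of ventral neural progenitors (0 and 3), and the hypothalamic gene Bsx (4 and 5); Cdx1 and Cdx4 had none. With no count among 3 libraries, up to 3 counts over a group remain possible, so expression of these genes below that level was not detectable at this depth.

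Transcripts named after a homeobox gene with the ending os or as run antisense or divergent to it, and no source used here says whether the counting used strand, so reads of such a pair may not be told apart. Vax2os was at 0.154, 0.268 and 0.362 CPM in WT and at 1.56, 1.55 and 1.62 CPM in EED-/- libraries, 5.92-fold higher (edgeR adjusted p = 0.00152), beside the higher Vax2. Both Vax2os and Vax2 passed the filter only through the EED-/- libraries. Dlx6os1 had 2 counts in WT and 33 in EED-/- libraries (ratio 15.1, 95% interval 3.86 to 130), beside the higher Dlx6. Emx2os had 13 and 59 counts without overlap and was not called (log2 2.02 ± 0.70 SE, edgeR adjusted p = 0.0651). Dlx1as, Dlx4os, Evx1os and Nkx2-2os overlapped between groups and were not called (edgeR adjusted p 0.263 to 0.912).

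Other homeobox genes were set beside these 21, of which 3 of the 7 higher ones (Dlx6, Emx2 and Vax2) passed the filter only through the EED-/- libraries. Of 7 tested ANTP genes outside the Hox clusters that are not among the 39, 5 were higher (Dbx2, En1, Nkx2-9 and Gbx2 among them; 3 of the 5 passed only through the EED-/- libraries) and 1 was lower (En2, a midbrain and cerebellum factor at 121 to 167 CPM in WT and 21.2 to 22.5 CPM in EED-/- libraries). Dbx2, of the middle neural tube, was at 4.87 to 7.86 CPM in WT and 13.0 to 16.8 CPM in EED-/- libraries, and rose 2.41-fold (edgeR adjusted p = 0.00306). Of 30 tested Hox cluster genes 15 were higher, all of which passed the filter only through the EED-/- libraries, so their direction was fixed by the filter. By edgeR, 0 were lower (0 also at an unadjusted p under 0.05 and by DESeq2 and limma-voom, but 1 without WT replicate 2), and requiring 1 CPM in 3 libraries left 7 higher. The higher ones were led by Hoxd8, Hoxa7, Hoxd9 and Hoxa13, which had 0 to 5 counts each over the WT libraries and 109 to 429 over the EED-/- libraries. Of 70 tested homeobox genes of other classes, 27 were higher (6 of them passed only through the EED-/- libraries), with Pax7, Dmbx1 and Lhx2 among them, and 11 were lower, led by Pax6, Uncx, Meis1 and Prox1. Without EED-/- replicate 1, 15 of these genes were called higher, and 33 without WT replicate 1. The difference in shares between the groups of homeobox genes was not tested.

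**Figure D4:**
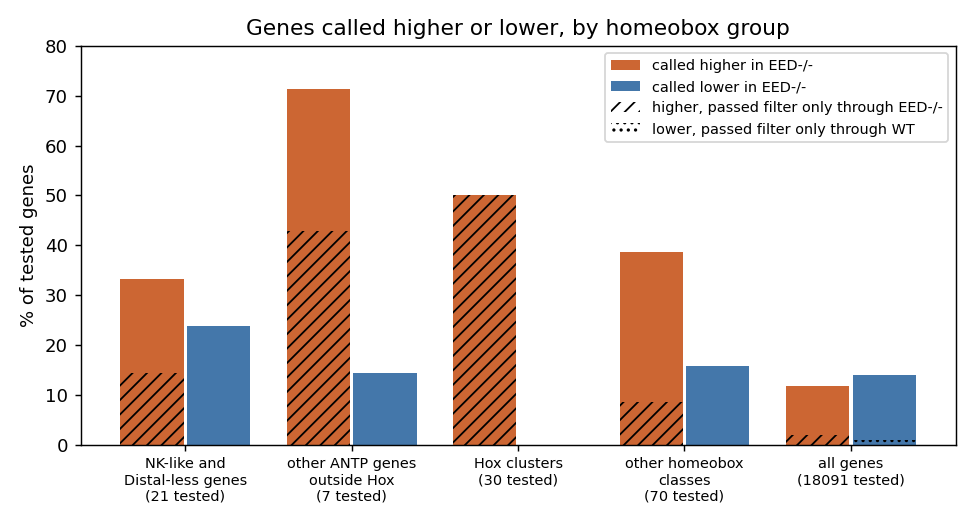
Percent of tested genes called higher or lower in EED-/- libraries (edgeR adjusted p under 0.05) for the 21 tested NK-like and Distal-less genes, 3 other groups of homeobox genes and all 18091 tested genes. The 21 genes stand at 33.3% higher and 23.8% lower, and all tested genes at 11.7% and 14.1%. Hatching marks genes that passed the filter only through the group where they are high, which fixes their direction: all of the 50.0% of Hox cluster genes, 14.3% of the 21 genes and 1.94% of all tested genes.

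Signals that pattern the neural tube upstream of these factors were set beside the whole tested set. Of 23 tested signals, 30.4% were called higher and 8.7% lower, against 11.7% and 14.1% of the whole set. That contrast was not tested. The 7 higher ones were led by Bmp7, Aldh1a2, Bmp4 and Smo, and 1 of them passed the filter only through the EED-/- libraries. The 2 lower ones were Aldh1a3 and Ptch1. Without EED-/- replicate 1 or 2, 3 were higher, and 4 without EED-/- replicate 3 or WT replicate 3. Bmp4, a ligand upstream of the Msx genes, was at 6.72 to 7.85 CPM in WT and 11.1 to 15.1 CPM in EED-/- libraries, a 1.81-fold rise (edgeR adjusted p = 0.00636). Corepressors and partners, such as the Groucho family Tle proteins that bind NK-class factors, gave 3 higher (Gata4, Tle4 and Olig2) and 3 lower (Tle2, Tle3 and Hipk1) of 17. That is 17.65% in each direction, beside 11.7% higher and 14.1% lower of the whole set, and nothing is read from these shares. Olig2 is also on the oligodendrocyte progenitor list. Of the 3 higher, 1 passed the filter only through the EED-/- libraries. Without WT replicate 1, 5 were higher. Tle3 was 2.12-fold lower (edgeR adjusted p = 0.00465), and Tle4 1.38-fold higher (edgeR adjusted p = 0.0121).

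Genes known to act under Dlx factors in GABAergic forebrain neurons were higher for 8 of 15 tested and lower for 0 in edgeR (0 also at an unadjusted p under 0.05 and by DESeq2 and limma-voom). Of the 8 higher genes, 2 passed the filter only through the EED-/- libraries, Sp8 among them. Sp8 was at 0.155 to 0.268 CPM in WT and 1.28 to 1.46 CPM in EED-/- libraries, Zfhx3 rose 2.62-fold and Npy 3.22-fold (edgeR adjusted p = 0.00113, 0.00181 and 0.00397). Genes acting with the Tlx, Lbx, Evx and Mnx factors in spinal and hindbrain neurons were higher for 8 of 16 tested and lower for 0 (edgeR, adjusted or unadjusted, DESeq2 and limma-voom), led by Foxd3, Neurog2, Pou4f1 and Isl1. Here too, 2 of the 8 passed the filter only through the EED-/- libraries. Pou4f1, a sensory neuron factor, rose 5.67-fold (edgeR adjusted p = 0.00226).

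Markers of other tissues in which these factors are known moved in the same libraries. Forebrain neuron markers were higher for 6 of 15 (Bcl11b, Rxrg, Drd2, Camk2a and Drd1 among them), with summed levels of 322 to 422 CPM in WT and 457 to 486 CPM in EED-/- libraries; 3 were higher without WT replicate 2, WT replicate 3 or EED-/- replicate 3. Bone and cartilage markers were higher for 7 of 13 (2 of the 7 passed the filter only through the EED-/- libraries) and lower for 1 (Phex). Their sums were 114 to 122 CPM in WT and 202 to 272 CPM in EED-/- libraries, and 4 of these markers were higher without WT replicate 3. Skeletal muscle markers were higher for 15 of 16 (11 of the 15 passed the filter only through the EED-/- libraries), led by Acta1, Myh8, Myh3 and Mylpf, with sums of 13.3 to 15.02 and 123 to 177 CPM. Meningeal fibroblast markers were higher for 14 of 15 and lower for Zic1, which the granule list also holds, and their sums overlapped (1691 to 1802 and 1615 to 2231 CPM). Endothelial and mural markers were higher for 4 of 14 (Acta2, Kdr, Tek and Rgs5), and for 1 with EED-/- replicate 1, EED-/- replicate 2 or WT replicate 3 left out. The part of any of these tissues in the rare homeobox transcripts was not tested.

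Genes next to the 39 on the chromosome were counted in the same fit. The nearest tested protein-coding gene on each side was taken, leaving out the homeobox genes listed here by their symbols. This gave 68 genes, of which 12 (17.6%) were higher and 10 (14.7%) lower, beside 11.7% and 14.1% of all tested genes. Around the 7 genes called higher, 3 of 14 neighbours were higher (Pax1, Gpat3 and Gm28230) and 3 lower (Nfrkb, Stambp and Ankrd53). Gm28230 lies 67170 bases from Evx2, which flanks the HoxD cluster, and its overlap with Hox genes was not tested. Pax1, next to Nkx2-2, had a log2 change of 4.41 (edgeR adjusted p = 0.00418), whereas both neighbours of Vax2 were lower. Around the 5 genes called lower, 1 of 10 neighbours was higher (Drd1, next to Msx2) and 1 lower (Ranbp17, next to Tlx3, log2 -0.71, edgeR adjusted p = 0.00918). Neither neighbour of Barhl1, Barhl2 or Lbx1 was called.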

How the data were processed

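Per the submitters' processing notes, the tools were Salmon 1.1.0, Trimmomatic 0.36, Bowtie2 2.4.1, DESeq2 1.26.0 and MACS2, with builds mm10 and GRCm38; the assay each served, and strand use, are not given here. The authors' deposited table holds estimated counts per gene and library (expected counts, not scaled; 22.5% to 23.6% of values were not whole), and Salmon-type counting splits reads of similar genes by a model. Per the file headers, the authors' deposited table of differences holds DESeq2 columns: a log2 fold change with its SE, a p-value, an adjusted p-value (written as 1 where missing), a mean signal over libraries and a test score.

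Estimated counts were rounded, filtered with filterByExpr (minimum count 10), TMM-scaled and tested with edgeR 4.0.16 (glmQLFit, robust, and glmQLFTest; two-sided, genotype only) in R 4.3.3, with Benjamini-Hochberg adjustment over 18091 genes. Libraries held 19621814 to 20366173 counts. SEs are the size of the log2 change over the root of F. Where WT had 0 counts, a lower bound of the fold was computed with 3 counts over the group; with 1 to 3, a ratio with an exact conditional binomial 95% interval. Gene positions are from GENCODE on GRCm38. Alternatives were RLE, upper-quartile or no scaling factors, DESeq2 1.42.0, limma-voom (limma 3.58.1), other filters, a replicate block and leaving out each library. The procedure was tested on simulated data in which changes were placed only in genes above 1 CPM, so that test does not cover rarer genes. Named genes were all 39 members, Eed, up to 4 called genes a direction with the smallest adjusted p in each list (short counts are named in full; some genes are not reported here), os and as transcripts and called neighbours. Members and lists were chosen with earlier results of these data known. No replicate pair agreed within counting noise (8.36 to 55.2 chi-square units per degree of freedom).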

Additional observations from a re-analysis of the deposited data

How the results depend on the processing

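Of 289 log2 values recomputed under alternatives for the tested genes, 261 kept their direction and side of the threshold. The number of the 39 genes called higher was 7 as reported, 13 with DESeq2 (which added Barx1, Dlx2, Hmx1, Mnx1, Nkx2-3 and Nkx2-5) and 15 with no low-count filter (those and Vax1 and Tlx1); both test genes that the main filter removed. Leaving out a library gave 4 (without EED-/- replicate 2) to 9 (without WT replicate 1) higher, and 4 (without EED-/- replicate 3) or 5 lower. Over all genes it gave 1205 (without EED-/- replicate 1) to 2176 higher and 1335 (without EED-/- replicate 1) to 2476 lower. Sign changes arose only among uncalled genes when a library was left out: Nkx6-2 ranged from -0.11 to 0.40, Gbx1 from -0.42 to 0.14 and Meox1 from -0.12 to 0.16 on the log2 scale, and Meox1 was also -0.06 without EED-/- replicate 2; the cause was not tested. Requiring 1 CPM in 3 libraries left 16 genes tested, without Dlx6 and Vax2. Upper-quartile factors shifted the median log2 of all genes by 0.12. The 12 calls were kept in that setting, and Tlx1 joined them. These calls were made against no change, and not against the shifted median. Depth limits the genes below 1 CPM.

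The shared replicate numbers did not pair the samples: correlations of deviations between same-numbered libraries were 0.03, -0.23 and -0.00, and 1 of 6 libraries correlated best with its own number. With the replicate block, 5 genes were higher and 5 lower. Barx2 (adjusted p = 0.0699), Evx2 (0.0509) and Nkx2-2 (0.0911) no longer passed, and Tlx1 (0.0465) passed.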
